A study of Mus musculus with 16 samples.

Results

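Neutrophils of the spleen were set against neutrophils of the blood in germ-free (GF) mice, which are raised without any microorganisms. The comparison used 5 of the 16 libraries of the series, chosen by their labels alone: 3 from GF spleen (numbered 1, 3 and 4) and 2 from GF blood (numbered 2 and 3). All came from C57BL/6 mice with no further treatment named, and the cells had been sorted by flow cytometry on CD45, CD11b, Ly6G and DAPI. As a second look at the same tissue contrast, 5 libraries of specific pathogen free (SPF) mice, which carry a microbiota, were used: 3 from SPF spleen (1, 2 and 4) and 2 from SPF blood (3 and 4). Age, sex and the way in which the spleens were taken apart are not given in the sources used here. Each library is described as coming from a mouse, but nothing states that those of a group came from separate mice, so a p-value here reflects how the libraries vary, which can be technical variation.

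Neutrophils are made in the bone marrow and load their granules in sequence as they mature. Primary (azurophilic) granule proteins are transcribed first, secondary (specific) granule proteins such as lactoferrin next, and gelatinase granule proteins last, and the transcripts of the earlier sets are largely gone from mature cells in the circulation. The spleen filters blood through cords rich in macrophages, removes old red cells and platelets, and holds a store of neutrophils beside its lymphocytes.

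Levels are given as normalised counts, the deposited linear signal less a fixed offset of 0.5 reads that each value carries. Values are listed in the order GF spleen 1, 3 and 4, then GF blood 2 and 3. The GF spleen libraries held an estimated 196633, 376985 and 147645 reads, against 2555255 and 132798 in GF blood. A single read was therefore worth 5.07, 2.47 and 6.01 normalised counts in GF spleen, against 0.468 and 7.41 in GF blood, and 1949 to 3222 genes had 0 reads in a spleen library, against 596 and 3885 in GF blood. Across genes, Spearman's rho was 0.809 to 0.853 between GF spleen libraries, 0.869 between the GF blood libraries and 0.788 to 0.894 between a spleen and a blood library. The range between the tissues overlapped the ranges within them.

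The libraries carried the transcripts that define neutrophils in both tissues. S100a8, which encodes a calcium-binding protein that neutrophils hold in great amounts, stood at 18815, 6537 and 5298 in GF spleen, against 16263 and 10940 in GF blood. Csf3r, the receptor for granulocyte colony-stimulating factor, stood at 6837, 8749 and 9207 in GF spleen, against 9748 and 7489 in GF blood. Of the 10 neutrophil markers examined, none passed the test between the tissues, with log2 differences of -0.62 (S100a8) to 1.5 (Ly6g, adjusted p = 0.267). Ly6g itself measured 411, 138 and 72.1 in GF spleen, against 97.3 and 29.6 in GF blood, and the groups overlapped. Among the alternative fits it passed only without GF spleen 4 (2.05, adjusted p = 0.0442). Its difference was 0.83 without GF spleen 1 (adjusted p = 0.394) and 0.74 without GF blood 3. GF spleen 1 was the highest of the spleen libraries for Ly6g and S100a8, and it also held by far the most haemoglobin RNA of the 3. Its sum over 12 erythroid genes, 22606, lay between those of the other GF spleen libraries (402 and 324) and those of GF blood (82944 and 100370), while for Chil3, Vcam1, Itga2b and Ppbp it stood with the other spleen libraries. Whether the sample held red cells was not tested, so results that rest on it are given with and without it.

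In limma, 73 of the 8299 genes tested (0.88%) differed between GF spleen and GF blood at an adjusted p under 0.05, 39 of them higher in spleen (0.47%) and 34 lower (0.41%). Differences are log2(value + 1) in spleen minus blood, with a standard error (SE), from a model of all 16 libraries. The median difference over all genes tested was 0.04. The levels in the 3 spleen libraries did not overlap those in the 2 blood libraries for any of the 73, which was also true of 23.2% of all genes tested. The higher genes included secondary granule proteins, the adhesion molecule Vcam1 and antigen presentation genes, and 10 of the 34 lower ones were on the list of platelet and megakaryocyte genes.

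**Figure D1:**
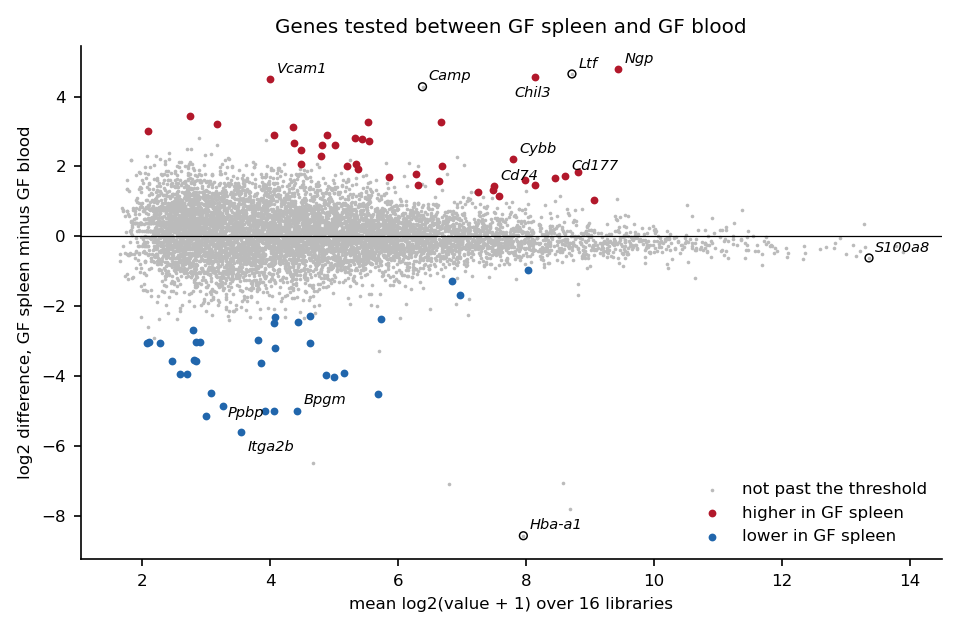
Each point is 1 of the 8299 genes tested, with its mean log2(value + 1) over 16 libraries on the x axis and its log2 difference, GF spleen minus GF blood, on the y axis. The 39 genes higher in GF spleen (red) include Ngp (4.79) and Chil3 (4.57), the 34 lower ones (blue) include Itga2b (-5.62), and open circles mark Ltf, Camp, S100a8 and Hba-a1, which did not pass.

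Genes of the secondary granule list were the main group of neutrophil genes higher in GF spleen. Of 17 tested, 5 were higher (Ngp, Chil3, Cd177, Cybb and Serpinb1a), 0 lower, and 14 had a positive difference; the median was 0.89, against 0.04 over all genes. Chil3 (ENSMUSG00000040809, chromosome 3, 106147554 to 106167564, GRCm38), which encodes the chitinase-like lectin Ym1, measured 3632, 2153 and 1736 in GF spleen, against 98.7 and 96.3 in GF blood (log2 difference 4.57, SE 0.47, adjusted p = 7.73e-05). The groups did not overlap, and the lowest spleen library stood far above both blood libraries. Reads of Chil3 may be shared with close copies among the chitinase-like genes. Its difference was 4.43 between GF spleen 3 and GF blood 2 alone, the libraries of these groups over 250000 reads, and did not pass there, with 1 library a group and the spread taken from the other groups.

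Ngp (ENSMUSG00000032484, chromosome 9, 110419747 to 110423012), neutrophilic granule protein, measured 16566, 7800 and 5927 in GF spleen, against 329 and 326 in GF blood (4.79, SE 0.92, adjusted p = 0.0442). Its call was lost when any one of the 5 libraries was left out (4.36 to 5.11, adjusted p 0.0784 to 0.279). Ltf, which encodes lactoferrin, stood at 11698, 4982 and 4631 in GF spleen, against 238 and 274 in GF blood. Its difference of 4.65 did not pass (adjusted p = 0.089). Camp, the precursor of the antimicrobial peptide cathelicidin, stood at 1669, 921 and 601 in GF spleen, against 43.5 and 51.9 in GF blood, and did not pass either (4.28, adjusted p = 0.0714). In all 3 genes GF spleen 1 was the highest library and the groups did not overlap; without that library the differences were 4.36, 4.22 and 3.89. Ltf and Camp passed with voom weights on estimated reads (adjusted p = 0.0411 and 0.0304). Neither passed with array weights (adjusted p = 0.377 and 0.332) or with the replicate number as a block (0.319 and 0.317). At equal depth Camp passed (adjusted p = 7.56e-08) and Ltf did not (0.132).

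The other called genes of the same list differed by less, with smaller error. Cd177 (chromosome 7, 24743983 to 24760311), a surface glycoprotein of neutrophils, measured 1633, 1000 and 966 in GF spleen, against 377 and 326 in GF blood (1.72, SE 0.25, adjusted p = 9.21e-05). Cybb (chromosome X, 9435252 to 9487771), the catalytic subunit of the phagocyte NADPH oxidase, measured 847, 471 and 443 in GF spleen, against 107 and 133 in GF blood (2.21, SE 0.31, adjusted p = 6.07e-05). Cyba, which encodes the partner subunit of Cybb in the membrane, had a difference of -0.36 (adjusted p = 0.58), and Cybb was the only 1 of 8 oxidase genes to pass. Serpinb1a, an inhibitor of neutrophil serine proteases, measured 249, 131 and 120 in GF spleen, against 27.1 and 14.8 in GF blood (2.77, SE 0.40, adjusted p = 9.21e-05). Each of Cd177, Cybb and Serpinb1a kept its call with any of the 5 libraries left out.

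The other granule sets gave no call. On the secondary granule list, Lcn2 (lipocalin 2, 0.89), Lyz2 (lysozyme, 0.36), Hp (haptoglobin, -0.49) and Padi4 (which citrullinates histones, 0.08) did not pass. Of the 11 genes on the primary granule list only 4 were in the file (Prss57, Cd63, Ctsc and Srgn), so the rest of the list could not be examined. None of the 4 passed, with a median of 0.05. Of 15 gelatinase granule and S100 genes none passed, and 4 had a positive difference, with a median of -0.35. Mmp8 had a difference of 0.09 and Mmp9, gelatinase B, of -0.31. Of 13 cell cycle genes none passed, with a median of 0.17.

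Several neutrophil genes outside the granule lists were higher in GF spleen. Itgb2l, an integrin subunit related to Itgb2, measured 243, 227 and 180 in GF spleen, against 26.7 and 29.6 in GF blood (2.82, SE 0.42, adjusted p = 0.000127). Anxa3, a calcium-dependent membrane-binding protein, measured 112, 66.7 and 48.1 in GF spleen, against 11.2 and 0 in GF blood (3.28, SE 0.48, adjusted p = 9.77e-05). Lta4h, which makes the chemoattractant leukotriene B4, measured 269, 136 and 102 in GF spleen, against 41.6 and 44.4 in GF blood (1.79, adjusted p = 0.00701). The groups did not overlap in any of these 3 genes. Itgb2l and Anxa3 kept their calls without each of the 5 libraries, and the call of Lta4h was lost without GF spleen 1 and without either blood library. Adpgk, an ADP-dependent glucokinase, measured 112, 69.1 and 78.1 in GF spleen, against 7.01 and 7.41 in GF blood (3.13, adjusted p = 0.000543), a call lost at equal depth.

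**Figure D2:**
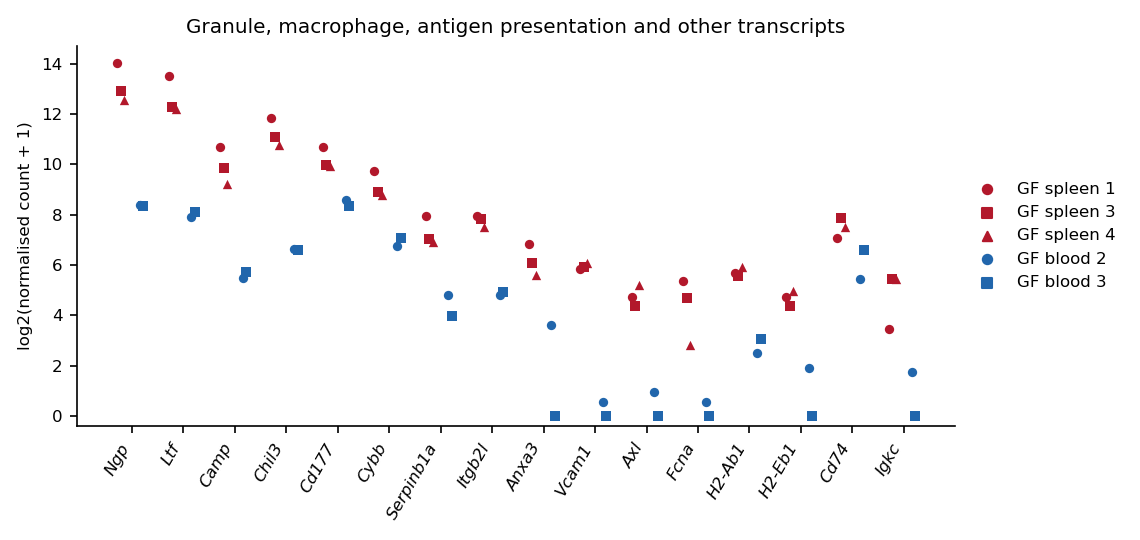
The y axis gives log2(normalised count + 1) for 16 genes in GF spleen libraries 1, 3 and 4 (red) and, to their right, GF blood libraries 2 and 3 (blue), 1 point per library. For every gene shown the spleen points lie above the blood points, from Ngp at 5927 to 16566 normalised counts in GF spleen, against 329 and 326 in GF blood, to Fcna at 6.01 to 40.6 in GF spleen, against 0.468 and 0 in GF blood.

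Promoters of 4 of the leading genes are printed because granule and platelet genes moved in opposite directions and their lineages are classically tied to C/EBP and GATA factors. Ngp, Chil3 and Itga2b were taken by the size of their difference, and Pf4 was added apart from that ranking. The sequences are RefSeq's (GRCm38.p6), 250 bases before to 50 after the annotated start, 5' to 3' on the gene's strand. Capitals mark GATAA and TTGCNNAA, each searched on both strands, so that their reverse complements are in capitals too; the motifs do not overlap in these windows.
Ngp (chr9:110419558-110419857, plus strand): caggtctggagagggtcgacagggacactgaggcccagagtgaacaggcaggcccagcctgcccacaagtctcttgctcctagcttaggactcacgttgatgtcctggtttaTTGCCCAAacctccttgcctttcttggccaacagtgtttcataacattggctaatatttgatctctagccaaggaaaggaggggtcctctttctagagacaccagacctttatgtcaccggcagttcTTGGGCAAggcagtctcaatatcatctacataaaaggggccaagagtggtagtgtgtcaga
Chil3 (chr3:106167515-106167814, minus strand): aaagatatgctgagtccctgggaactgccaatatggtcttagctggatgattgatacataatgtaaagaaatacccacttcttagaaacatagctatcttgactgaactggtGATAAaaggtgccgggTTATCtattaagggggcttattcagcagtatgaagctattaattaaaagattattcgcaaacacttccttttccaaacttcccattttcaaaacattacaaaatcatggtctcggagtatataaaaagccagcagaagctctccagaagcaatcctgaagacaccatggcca
Itga2b (chr11:102469834-102470133, minus strand): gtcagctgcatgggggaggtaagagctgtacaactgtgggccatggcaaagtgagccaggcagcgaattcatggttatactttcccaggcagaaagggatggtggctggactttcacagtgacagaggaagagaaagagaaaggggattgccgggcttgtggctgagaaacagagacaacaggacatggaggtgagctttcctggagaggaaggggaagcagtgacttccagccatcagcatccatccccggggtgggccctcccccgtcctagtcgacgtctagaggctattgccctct
Pf4 (chr5:90772185-90772484, plus strand): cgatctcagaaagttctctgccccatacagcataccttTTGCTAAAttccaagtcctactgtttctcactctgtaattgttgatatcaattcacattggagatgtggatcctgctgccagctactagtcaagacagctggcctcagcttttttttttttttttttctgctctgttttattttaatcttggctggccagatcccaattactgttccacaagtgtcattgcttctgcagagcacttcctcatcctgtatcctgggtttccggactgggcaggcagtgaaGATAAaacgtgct
GATAA stood in 25.4% of the 32851 promoters in the table, and TTGCNNAA in 10.8%. Of the genes of the secondary granule list higher in spleen, 4 had a promoter in the table. Among those 4, 2 held GATAA (Chil3 and Cybb) and 1 held TTGCNNAA (Ngp, at 2 places). Of the platelet genes lower in spleen, 8 had a promoter, of which 3 held GATAA (Clec1b, Gp9 and Pf4) and 1 held TTGCNNAA (Pf4). The window of Alox12, which follows Itga2b by size of difference among the named lower genes, is not printed and held 0 matches of either motif. Such matches describe these windows and are not shown to be binding sites.

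Among markers of splenic macrophages and monocytes, 16 were tested, 2 were higher in GF spleen (Vcam1 and Axl) and 1 was lower (F13a1), with a median of 0.91 (0.79 with genes at 0 reads held at their bound). Vcam1 (chromosome 3, 116109949 to 116129688), an adhesion molecule carried by red pulp macrophages, endothelium and stroma, measured 55.8, 59.2 and 66.1 in GF spleen, against 0.468 and 0 in GF blood (4.49, SE 0.62, adjusted p = 5.5e-05). That was 46 reads over the spleen libraries against 1 over the blood libraries, a 136-fold ratio with a 95% counting interval of 23.2 to 5488. Vcam1 passed without each of the 5 libraries. Axl, a receptor tyrosine kinase involved in clearing dying cells, measured 25.4, 19.7 and 36 in GF spleen, against 0.935 and 0 in GF blood (3.20, adjusted p = 0.0208), and its call was lost without GF spleen 4 or either blood library. Outside the list, Fcna, which encodes the lectin ficolin A and is expressed by macrophages, measured 40.6, 24.7 and 6.01 in GF spleen, against 0.468 and 0 in GF blood (3.01, adjusted p = 0.0435).

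The other defining macrophage markers were at few reads. The complement gene C1qa stood at 10.1, 2.47 and 30 in GF spleen, against 0.468 and 0 in GF blood (2.20, adjusted p = 0.263), and C1qc at 15.2, 19.7 and 6.01 in GF spleen, against 0.468 and 0 in GF blood (2.50, adjusted p = 0.189). Spic, the transcription factor of red pulp macrophages, was at 0, 7.41 and 6.01 in GF spleen and at 0 in both GF blood libraries, and was too low to be tested. Markers at high level in both tissues, such as Csf1r (0.14) and Slc40a1, the iron exporter ferroportin (-0.46), did not pass. Summed over the 20 list genes in the file, levels were 4696 to 5369 in GF spleen, against 6452 and 5223 in GF blood. The part of macrophage RNA in the calls of Vcam1, Axl and Fcna was not tested, and in sorted bulk samples fewer cells of a type and less RNA per cell cannot be told apart.

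Antigen presentation genes of MHC class II were higher in GF spleen in 3 of 10 cases and lower in 0, with a median of 1.59; at equal depth 1 of 11 passed. H2-Ab1 (chromosome 17, 34257689 to 34269419), a beta chain that presents peptides to helper T cells, measured 50.7, 46.9 and 60.1 in GF spleen, against 4.68 and 7.41 in GF blood (2.71, SE 0.43, adjusted p = 0.000312). H2-Eb1, another beta chain, measured 25.4, 19.7 and 30 in GF spleen, against 2.81 and 0 in GF blood (2.68, adjusted p = 0.0052). Cd74, the invariant chain, measured 132, 230 and 180 in GF spleen, against 43 and 96.3 in GF blood (1.42, adjusted p = 0.02). The groups did not overlap in these 3 genes. The call of H2-Ab1 held without each of the 5 libraries, that of H2-Eb1 was lost without GF blood 3, and that of Cd74 was lost without any one of GF spleen 3, GF spleen 4 and GF blood 2. Ciita, the coactivator that switches the class II genes on, was at 0, 0 and 12 in GF spleen, against 0 and 7.41 in GF blood.

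B cells and macrophages also carry class II. Of 13 B cell markers tested 1 was higher, Igkc, the kappa light chain constant region, at 10.1, 42 and 42 in GF spleen, against 2.34 and 0 in GF blood (2.89, adjusted p = 0.0167). It lost its call without any one of 4 libraries. Cd79b, a subunit of the B cell receptor complex, stood at 20.3, 12.3 and 6.01 in GF spleen, against 1.87 and 0 in GF blood (1.99, adjusted p = 0.168). These values are a few reads per spleen library. Summed over the 15 B cell genes in the file, levels were 669 to 769 in GF spleen, against 750 and 785 in GF blood, carried mostly by Ighm and Cd37; the part of B cell RNA in the class II calls was not tested. Sums for T and NK cell markers were 6.01 to 30.4 in GF spleen, against 9.35 and 7.41 in GF blood, and for dendritic cell markers 5.07 to 29.6 in GF spleen, against 11.7 and 0 in GF blood.

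Platelet and megakaryocyte genes were the largest group lower in GF spleen. Of 18 tested, 10 were lower and 0 higher, with a median of -3.02 (-2.81 with genes at 0 reads held at their bound). Itga2b (chromosome 11, 102453297 to 102470122), the platelet integrin subunit CD41, had 0 reads in the 3 GF spleen libraries, against 206 and 111 normalised counts in GF blood (-5.62, SE 0.60, adjusted p = 2.07e-06). Against a floor of 3 reads pooled over the spleen libraries, that is at least 40.7-fold lower. Alox12, platelet 12-lipoxygenase, also had 0 reads in the 3 GF spleen libraries, against 114 and 104 in GF blood (-5.14, adjusted p = 4.4e-05), and was at least 27.9-fold lower. Floors and intervals cover counting error only.

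Both platelet chemokines on the list were lower. Ppbp (chromosome 5, 90768518 to 90770063), the precursor of the neutrophil attractant CXCL7, measured 0, 9.87 and 6.01 in GF spleen, against 246 and 230 in GF blood (-5.00, SE 0.65, adjusted p = 2.63e-05). Pf4, platelet factor 4, measured 5.07, 0 and 0 in GF spleen, against 116 and 74.1 in GF blood (-4.49, adjusted p = 0.000281). On 1 read in the spleen libraries, the pooled ratio for Pf4 was 86.9-fold lower, with an interval of 15.5 to 3446. Surface receptors and cytoskeletal genes of platelets were lower too: Gp9 (-3.95), Clec1b (-3.03), Treml1 (-3.02), the G protein subunit Gng11 (-3.63) and the platelet tubulin Tubb1 (-3.96). The calls of Itga2b, Alox12, Ppbp, Pf4, Gp9 and Gng11 held without each of the 5 libraries, and those of Gp9 and Gng11 were lost at equal depth.

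List members at high or similar level in both tissues did not pass. Plek, which encodes the protein kinase substrate pleckstrin, stood at 888, 1360 and 1628 in GF spleen, against 1561 and 1341 in GF blood (-0.21), and Rgs18, a regulator of G protein signalling, at 86.2, 81.5 and 72.1 in GF spleen, against 110 and 88.9 in GF blood (-0.30). Itgb3, the partner of Itga2b that other cells also use, stood at 0, 37 and 42 in GF spleen, against 42.6 and 81.5 in GF blood (-1.73, adjusted p = 0.408). Outside the list, Myl9, a myosin light chain of platelets and smooth muscle, measured 0, 0 and 6.01 in GF spleen, against 151 and 119 in GF blood (-5.00, adjusted p = 2.7e-05). Clu, clusterin, measured 20.3, 4.94 and 6.01 in GF spleen, against 199 and 156 in GF blood (-3.90, adjusted p = 1.87e-05). The part of platelets bound to blood neutrophils, or of free platelet RNA, in these differences was not tested.

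**Figure D3:**
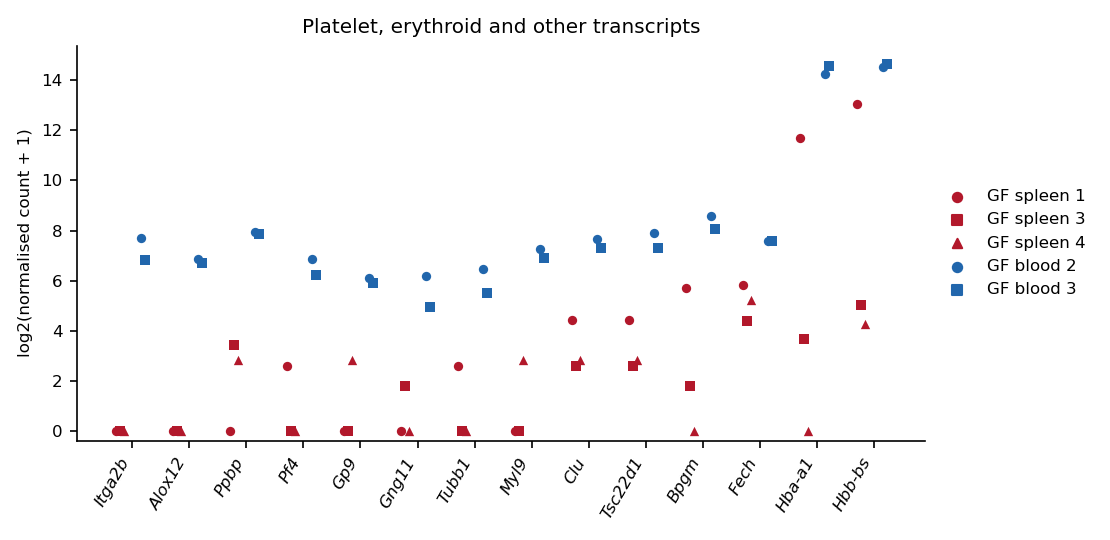
The y axis gives log2(normalised count + 1) for 14 genes in GF spleen libraries 1, 3 and 4 (red) and, to their right, GF blood libraries 2 and 3 (blue), 1 point per library. Platelet genes such as Ppbp lie at 0 to 9.87 normalised counts in GF spleen, against 230 and 246 in GF blood, while for Hba-a1 and Hbb-bs GF spleen 1 lies far above the other 2 spleen libraries.

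Erythroid transcripts separated GF spleen 1 from the other 2 spleen libraries. Hba-a1 (chromosome 11, 32283511 to 32284465), an alpha-globin gene, measured 3321, 11.7 and 0 in GF spleen, against 19495 and 24171 in GF blood (-8.57, adjusted p = 0.181). Hbb-bs, a beta-globin gene, measured 8476, 31.7 and 18 in GF spleen, against 23530 and 25902 in GF blood (-7.06, adjusted p = 0.278). Both were lower in every spleen library than in either blood library, and neither passed with all 5 libraries. Without GF spleen 1 they differed by -11.51 (adjusted p = 0.00258) and -9.82 (adjusted p = 0.0276). Reads of the globin genes can be shared between their near-identical copies.

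Of 12 erythroid genes tested, 3 were lower in GF spleen with all 5 libraries, and the number was 10 without GF spleen 1. The median was -4.92 with GF spleen 1 and -6.11 without it. Bpgm, which makes 2,3-bisphosphoglycerate in red cells, measured 50.7, 2.47 and 0 in GF spleen, against 377 and 267 in GF blood (-4.99, SE 0.83, adjusted p = 0.00233). Fech, ferrochelatase of haem synthesis, measured 55.8, 19.7 and 36 in GF spleen, against 189 and 193 in GF blood (-2.38, adjusted p = 0.000719). Summed over the 12 genes, levels were 22606, 402 and 324 in GF spleen, against 82944 and 100370 in GF blood.

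The remaining lower genes were of mixed roles. Ctla2a, a cysteine protease inhibitor, measured 15.2, 4.94 and 12 in GF spleen, against 370 and 230 in GF blood (-4.51, adjusted p = 0.000312), and its near copy Ctla2b, whose reads the counting may share, differed by -3.58. Tsc22d1, a transcriptional regulator, measured 20.3, 4.94 and 6.01 in GF spleen, against 241 and 156 in GF blood (-4.04, adjusted p = 2.7e-05). F13a1, the coagulation factor XIII A chain of monocytes and platelets, had 0 reads in the 3 GF spleen libraries, against 24.8 and 22.2 in GF blood (-3.07, adjusted p = 0.0262). March2, a membrane-bound ubiquitin ligase, measured 81.2, 83.9 and 84.1 in GF spleen, against 296 and 252 in GF blood (-1.68, SE 0.29, adjusted p = 0.00076). Others were Fhl1, Sh3bgrl2, Bag1, Cd226, Cavin2, Fam213a, Pdlim1, Cmas, Tent5c, Aldh1a1, Esam, Tubb2a, Ccndbp1 and Pttg1ip, between -3.98 (Fhl1) and -0.96 (Pttg1ip). In all, 9 of the 34 lower genes had 0 reads in the 3 spleen libraries. Single GF spleen libraries had 0 reads for 18.9% to 31.3% of all genes, and the share at 0 in all 3 was not counted.

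Mitochondrially encoded genes were higher in GF spleen in 5 of 13 cases (mt-Nd1, mt-Nd5, mt-Co3, mt-Atp6 and mt-Cytb) and lower in 0, with a median of 1.18 (0.98 with genes at 0 reads held at their bound). The gene mt-Nd1, a subunit of respiratory complex I, measured 101, 109 and 48.1 in GF spleen, against 15.4 and 0 in GF blood (3.26, SE 0.47, adjusted p = 0.000355). It kept its call without each of the 5 libraries, while the list had 1 call without GF blood 3, 2 without GF spleen 3 and 3 without GF spleen 1. Nuclear genes of oxidative phosphorylation gave none of 45, with a median of -0.25, and ribosomal protein genes none of 75, with a median of -0.22. Mitochondrial genes have nuclear copies that may share reads. Summed levels of the 13 genes were 2085, 1622 and 1298 in GF spleen, against 851 and 607 in GF blood; the groups did not overlap.

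Lists of activation and migration gave few calls or none. Of 39 inflammatory mediators and NF-kB targets none passed (median 0.09): Il1b, interleukin 1 beta, stood at 2511, 3310 and 3082 in GF spleen, against 4288 and 2822 in GF blood (-0.24). None of 25 trafficking and chemoattractant receptors passed. Cxcr4, the marrow retention receptor, stood at 55.8, 111 and 114 in GF spleen, against 68.2 and 51.9 in GF blood (0.56, adjusted p = 0.51). Of 27 immediate early genes Nr4a1 alone passed, at 60.9, 165 and 264 in GF spleen, against 47.2 and 37 in GF blood (1.66, adjusted p = 0.0283). The call of Nr4a1 was lost without GF spleen 3, without GF spleen 4 and after quantile rescaling. Of 40 interferon-stimulated genes Slfn4 alone passed, at 634, 632 and 745 in GF spleen, against 383 and 270 in GF blood (1.05, adjusted p = 0.0166). Slfn4 lost its call without GF spleen 4, with voom weights and at equal depth. Factors by which neutrophils are reported to help B cells gave none of 5, with Tnfsf13b, the survival factor BAFF, at -0.01.

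None passed among 30 pattern recognition genes, 16 Fc and complement receptors, 20 survival and apoptosis genes, 15 glucocorticoid and clock genes, 25 hypoxia and glycolysis genes, 28 lysosome and lipid handling genes, 12 heat shock chaperones, 16 MHC class I presentation genes and 4 long noncoding RNAs. Of 24 actin cytoskeleton genes 1 passed, Vasp, which promotes filament growth, at 218, 276 and 180 in GF spleen, against 124 and 59.3 in GF blood (1.33, adjusted p = 0.0187). Vasp lost its call without GF spleen 3, with voom weights and at equal depth. Among markers of eosinophils, basophils and mast cells none of 6 passed, and of 11 endothelial and stromal genes 1 was lower, Esam, an adhesion molecule also found on platelets (-2.30, adjusted p = 0.0486). A miss does not show that a list was equal between the tissues, since 1 read in a spleen library was worth 2.47 to 6.01 normalised counts.

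Calls in both directions depended on the shallow blood library, GF blood 3. There 15 of the 39 higher genes had 0 reads, as had 37.7% of all genes in the file. Without that library 12 of the 39 higher and 16 of the 34 lower genes kept their call, and 29 genes passed in all; GF blood is then 1 library, assumed to vary like the other groups. Without GF blood 2, which also leaves 1 blood library, 128 genes were higher and 25 lower. The higher genes not yet described were Acvrl1, a receptor of the BMP family (2.91, adjusted p = 0.000733), Mlst8, an mTOR complex subunit (3.44, adjusted p = 0.0212), Macf1, Usp9x, Srsf1, Ralgapa1, Tinagl1, Sp110, Cap1, Carns1, Parp14, Atp6v0d1, Ncoa3, Capg and Hcls1, between 1.16 (Hcls1) and 2.63 (Usp9x) apart from Acvrl1 and Mlst8. With each of the 5 libraries left out in turn, 26 of the 73 genes kept their call every time, 11 higher (Acvrl1, Adpgk, Anxa3, Cd177, Chil3, Cybb, H2-Ab1, Itgb2l, Serpinb1a, Vcam1 and mt-Nd1) and 15 lower (Alox12, Bpgm, Clu, Ctla2a, Ctla2b, Fech, Fhl1, Gng11, Gp9, Itga2b, March2, Myl9, Pf4, Ppbp and Tsc22d1). Every other gene of the 73 lost its call in at least 1 of these fits.

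**Figure D4:**
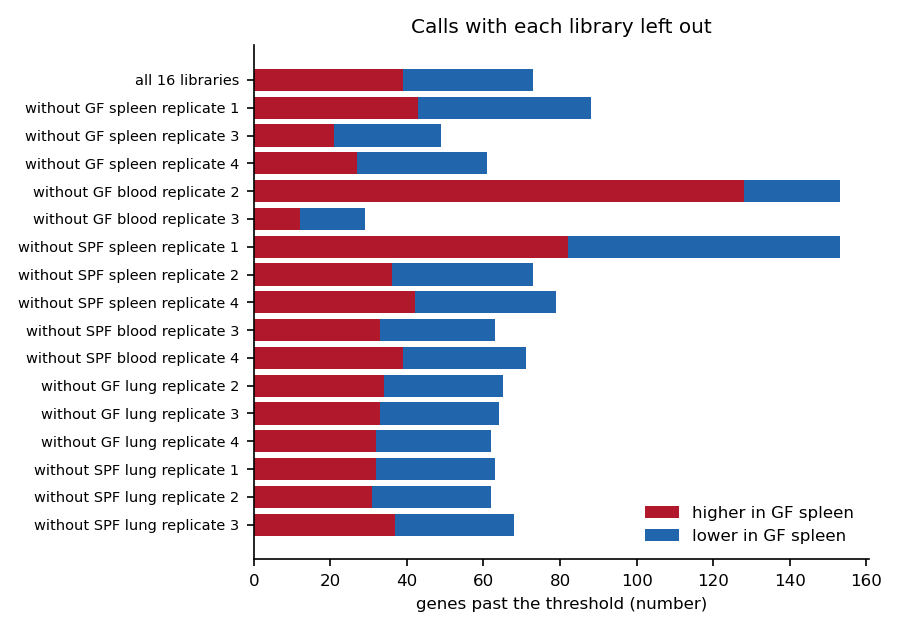
Bars give the number of genes past the threshold between GF spleen and GF blood, split into higher (red) and lower (blue) in GF spleen, with all 16 libraries (top) and with each library left out in turn. The number was 73 with all libraries, 29 without GF blood 3, and 153 without GF blood 2 or without SPF spleen 1.

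The same tissue contrast in SPF mice shares no library with the one in GF mice, though both come from one model. There 586 genes (7.06%) passed between SPF spleen and SPF blood, or 39 without SPF blood 3 and 283 without SPF blood 4. Of the 39 genes higher in GF spleen, 29 had a positive difference in SPF mice and 15 passed there; of the 34 lower genes, 32 had a negative difference and 21 passed. None passed in the opposite direction. Over all genes tested, 253 passed as higher and 333 as lower in SPF spleen, with a median SPF difference of 0.09. The share of all genes with a positive SPF difference was not counted, so the sign counts have no background beside them. Chil3 measured 899, 1436 and 1039 in SPF spleen (1, 2 and 4), against 21.7 and 52.1 in SPF blood (3 and 4), a difference of 4.98 (adjusted p = 3.53e-05). Ltf, which missed the threshold in GF mice, measured 2752, 3183 and 3168 in SPF spleen, against 9.48 and 96.8 in SPF blood. Itga2b measured 0, 8.94 and 0 in SPF spleen, against 47.9 and 61.3 in SPF blood (-3.32, adjusted p = 0.00112).

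By list, secondary granule genes were higher in SPF spleen in 7 of 17 cases and lower in 2, with a median of -0.22. Platelet genes were lower in 8 of 18 and erythroid genes in 8 of 12, with medians of -2.18 and -5.15, and the 3 SPF spleen libraries had erythroid sums of 389, 441 and 423, against 44894 and 71321 in SPF blood. The sums of GF spleen 3 and 4 were near these, and that of GF spleen 1 was far above them.

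The difference between the tissue contrasts passed for 63 of 8299 genes (0.759%), 34 positive and 29 negative (20 and 35 after quantile rescaling). Of the 73 genes called in GF mice, 8 were among them. Anxa3 measured 15.2, 47.7 and 51.7 in SPF spleen, against 43.4 and 25.9 in SPF blood (3.28 in GF mice and 0.13 in SPF mice; difference of the differences 3.16, adjusted p = 0.0264). Hcls1, Capg and Vasp had differences of 1.16, 1.26 and 1.33 in GF mice, against -0.73, -0.67 and -0.64 in SPF mice. Atp6v0d1, a proton pump subunit, had 1.58 in GF mice, against -1.24 in SPF mice, and Macf1, a linker of microtubules and actin, had 2.61 in GF mice, against -0.56 in SPF mice. Bag1, a chaperone regulator, and Cmas, an enzyme of sialic acid metabolism, ran the other way, at -3.20 and -2.68 in GF mice, against 1.32 and 2.08 in SPF mice. A gene at 0 reads took 3.81, 0.745 and 2.35 in SPF spleen, against 0.226 and 0.196 in SPF blood. Depth alone can therefore make the SPF difference of a low gene positive, and its part in those of Bag1 and Cmas was not tested. No other gene named above as called in GF mice passed the test of the difference between the contrasts. The count of 63 moved with single libraries: it was 2 without GF blood 3, 3 without SPF blood 3, 5 without SPF spleen 2, 13 without GF spleen 3 and 24 without SPF blood 4, but 110 without SPF spleen 4, 169 without GF blood 2 and 207 without SPF spleen 1. It was 0 without the trended and robust prior.

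**Figure D5:**
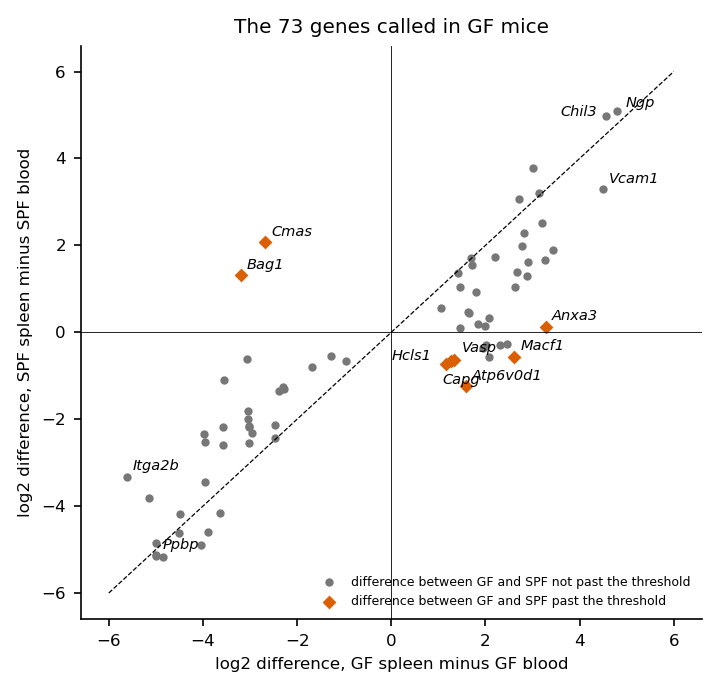
Each point is 1 of the 73 genes called in GF mice, with its log2 difference, GF spleen minus GF blood, on the x axis and SPF spleen minus SPF blood on the y axis; the dashed line marks equal differences. The 8 orange diamonds had a difference between GF and SPF mice past the threshold, Anxa3 (3.28 in GF, 0.13 in SPF) and Bag1 (-3.20 in GF, 1.32 in SPF) among them, and Chil3 (4.57 in GF, 4.98 in SPF) lies near the line.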

How the data were processed

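Complementary DNA amplified from sorted neutrophil RNA with a kit for low input was sequenced in paired-end mode, per the labels' protocols. CASAVA, RSEM 1.3.1, limma and mm10 are named in the submitters' processing notes; the annotation, scaling and strand setting are not given in the sources used here. The deposited file holds 1 linear signal value for each of 10296 genes in 16 libraries, with no unit in its header; low values stepped in whole reads above an offset of 0.5 reads, to within 0.05 of a read for 91.4% to 98.7% of them. Reads were estimated from those steps.

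A gene was tested if its signal reached 10 in 2 or more libraries (8299; 1997 were not). Group means of 6 groups were fitted to log2(value + 1) in limma 3.58.1 (R 4.3.3), with a trended and robust prior and two-sided tests, adjusted by Benjamini-Hochberg within each contrast. The offset of 0.5 reads was kept in these values. A gene at 0 reads therefore took 2.54, 1.23 and 3 in GF spleen, against 0.234 and 3.7 in GF blood. In SPF mice it took 3.81, 0.745 and 2.35 in spleen, against 0.226 and 0.196 in blood. Differences of low genes can thus be understated or shifted by depth. Mcm6, with 0 reads in all 5 GF spleen and GF blood libraries, had a difference of 0.39. Count models were not used, because whole reads could not be recovered in every library. Symbols and coordinates came from GENCODE M21 (10275 of 10296 identifiers matched).

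The comparison and the gene lists were chosen with earlier results of these data known. Named were genes past the threshold, members of smallest p in each list, a fixed set of well-known neutrophil genes and the largest differences between GF and SPF mice; predicted models were not named, and a few genes that count in the totals are not reported here by name. Alternatives covered pseudocounts, filters, scaling, weights, priors, library subsets, equal depth (104213 reads) and each library left out.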

Additional observations from a re-analysis of the deposited data

Results flagged for a closer look

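The tissue difference itself, spleen minus blood, differed between GF and SPF mice by a test of that difference (limma, adjusted p under 0.05) for the genes below, given as the log2 difference in GF mice minus that in SPF mice. It was above 0 for Dusp16 (3.47), Psmd7 (3.36), Macf1 (3.17), Anxa3 (3.16), Sik2 (2.95) and Atp6v0d1 (2.83). It was also above 0 for Ly6c2 (2.0), Cfl1 (2.0), Vasp (1.97) and the interferon regulator Irf7 (1.73), which are on the lists, and for Capg (1.94) and Hcls1 (1.89), which were called in GF mice. It was below 0 for the clock gene Cry1 (-4.0) and for Scaf4 (-4.52), Bag1 (-4.52), Nr2f6 (-4.56) and Cmas (-4.76). In these 5 genes the fitted difference was negative in GF mice and positive in SPF mice. A gene at 0 reads took higher values in SPF spleen than in SPF blood, so a positive SPF difference of a low gene can come from depth. The part of depth in these 5 genes was not tested.

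The long noncoding RNA Malat1 had the smallest p of those given here (2.60, adjusted p = 3.7e-05). It stood at 2933, 2477 and 2232 in GF spleen, against 1813 and 1241 in GF blood, and at 1512, 2226 and 2634 in SPF spleen, against 8730 and 6360 in SPF blood. The SPF blood libraries were the highest of these 10. Of the 34 genes with a positive difference between the contrasts, 21 were lower in SPF spleen than in SPF blood past the threshold. Of the 29 with a negative one, 22 were higher there. The SPF difference is part of the tested value, so these counts follow in part from how the genes were chosen. GF blood 3 had 0 reads for Dusp16, Psmd7, Macf1 and Anxa3, and the 3 GF spleen libraries had 0 reads for Scaf4, Nr2f6 and Cmas. At equal depth 45 genes passed this test.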

How the results depend on the processing

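Between GF spleen and GF blood the 73 calls became 44 (signal of at least 100), 42 (at least 10 reads in 2 of the 5 libraries), 38 (10 spleen and blood libraries alone), 37 (equal depth) and 114 (44 higher and 70 lower; libraries under 250000 reads left out), and 29 to 153 with 1 library left out. The 114 compare GF spleen 3 with GF blood 2 alone. The 586 calls between SPF spleen and SPF blood became 329 (quantile rescaling; 194 higher and 135 lower, against 253 and 333), 129 (plain prior), 1022 (array weights), 285 (10 libraries), 1075 (voom), 292 (equal depth) and 368 (shallow libraries left out, SPF spleen 2 being the only spleen library), and 39 to 730 with 1 left out. The 63 differences between the contrasts became 106 (median-ratio rescaling), 0 (plain prior; 1046 at an unadjusted p under 0.05), 101 (array weights), 7 (10 libraries) and 139 (voom), and 2 to 207 with 1 left out. A lone library in a group is assumed to vary like the other groups. Other settings apart from the replicate block kept the totals within 1.5 times, and no named gene changed the sign of its difference while called. The split could still move. With the offset removed and a pseudocount of 8, the SPF calls were 128 higher and 342 lower. The median SPF difference over all genes then went from 0.09 to -0.09. The cause of these shifts was not tested.

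With the replicate number as a replicate block the counts were 51, 393 and 16. GF spleen and GF blood share number 3 alone (correlation of deviations -0.128), and same-numbered libraries had a median correlation of -0.00939, so the numbers were not taken as pairs. Of the alternatives listed, edgeR, DESeq2 and TMM were not run, since whole reads were not recovered in every library. Depth limits low genes most: 1 read was worth 7.41 normalised counts in GF blood 3.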
